A study of Rattus norvegicus with 3 samples.

Results

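Genes of matrix modification, membrane transport and nucleotide metabolism were followed at the level of single transcripts across the stages of rat enamel formation: Plod2, Vcan, Bsg, Slc25a16, Abcb1b and Nme4. These 6 members of 4050 genes with alternative transcripts were chosen by their measured change of transcript make-up between stages in the authors' deposited tables, so their shares and p-values are given as a description and support nothing. The deposited isoform tables hold 19 transcripts of the members among 9949 in all: 3 of Plod2, 4 of Vcan, 2 of Bsg, 2 of Slc25a16, 5 of Abcb1b and 3 of Nme4. The median gene of these tables has 2 transcripts. All 6 members also stand in the deposited gene table of 16516 genes.

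RNA was sequenced from 3 cell populations dissected from the rat enamel organ (strain Wistar Hannover), with no treatment or mutation named in the labels and no age given there. The cervical loop is the growth zone of the dental epithelium, where new cells arise. Secretory ameloblasts lay down the enamel matrix, and maturation ameloblasts later withdraw it while mineral fills the space. Tissue came from 5 rats, only RNA with an integrity number of 7 or more was used, and the cervical loop library of 1 rat was left out under that limit. Each library was sequenced to 25000000 single-end reads of 75 bases. Each stage is 1 sample, deposited as 1 mean per gene or transcript, so no spread between rats can be computed and the authors' p-values alone carry replicate error. The deposited totals stand for 4 cervical loop, 4 secretory and 5 maturation libraries, 13 in all. With 5 rats and 1 library left out, 14 would be had if each rat gave 3, and this difference was not settled.

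Alternative transcripts of a gene arise when cells start, splice or end its RNA differently, and they can encode proteins that differ in a domain or in a targeting signal. Plod2 encodes a lysyl hydroxylase that modifies the ends of collagen chains, and an alternative exon gives it a short and a long form. Vcan encodes versican, a proteoglycan of the hyaluronan-rich matrix, whose splice forms differ in the stretches that carry chondroitin sulfate chains. Bsg encodes basigin, which brings lactate carriers to the cell surface and is best known in a short form and a retinal form with an additional immunoglobulin domain. Slc25a16 encodes a carrier of the inner mitochondrial membrane linked to coenzyme A, Abcb1b a P-glycoprotein that exports drugs and lipids, and Nme4 a mitochondrial nucleoside diphosphate kinase. The deposited transcript names, such as Plod2-201, were not matched here to these named protein forms.

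The labelled populations carried the RNA of their stage, although markers of other cells were present in all of them. Summed over 4 markers, secretory ameloblast genes had means of 2920, 112877 and 5621 in cervical loop, secretory and maturation samples in the authors' deposited table. The 5 maturation markers summed to 83.8, 554 and 5570, and the 6 markers of progenitors and dividing cells to 524, 67.2 and 62.0. The 12 mesenchyme markers summed to 11209, 11381 and 15485, the 7 measured endothelial markers to 163, 222 and 325, and the 6 measured myeloid markers to 215, 180 and 651. The 7 muscle and pericyte markers summed to 138, 107 and 196, and the erythroid marker Hbb stood at 365, 380 and 501. Dspp, the odontoblast marker, was at the floor of 0.1 in the maturation sample only, and the muscle marker Mb in the cervical loop sample only. No defining mesenchymal, endothelial or myeloid marker was at the floor in any stage. The part of these other cells in the members' shares was not tested. In such dissected tissue, fewer cells of a type and less RNA per cell cannot be told apart.

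A transcript share is here the percentage of the summed means of a gene's listed transcripts, and a shift of make-up is the number of percentage points that moved from one set of transcripts to the other. No label or header states the unit of the means or a correction for transcript length, so shares of a long and a short transcript may not be shares of molecules, and levels are compared between stages, not between genes. With single-end reads of 75 bases, the assignment of reads to transcripts is an estimate. The mean of a stage also differed between the 2 tables that hold it: by more than 1% for 37.5% of transcripts in the cervical loop and 40.4% in the secretory stage. A difference of more than 1.5-fold, or a mean below 0, was seen for 4.49% and 4.78%. Unless stated otherwise, cervical loop and secretory values come from the table of that pair of stages and maturation values from the table of maturation against secretory. In every pair, higher and lower refer to the later stage. Where the tables disagree on a member, means solved from the deposited totals are set beside them.

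From cervical loop to secretory stage, the authors' deposited table gives 4 of the 6 members an FDR under 0.05 for a change of make-up: Vcan, Slc25a16, Abcb1b and Nme4. Over all 4050 genes the share was 1.19%. From secretory to maturation stage 3 members passed, Plod2, Bsg and Abcb1b, against 1.80% of all genes. Between maturation and cervical loop 5 passed, all but Plod2, against 2.79%. As these contrasts chose the members, nothing is read from the difference. The leading transcript changed in 3 members (Vcan, Slc25a16 and Abcb1b), 2 members (Plod2 and Abcb1b) and 3 members (Plod2, Vcan and Slc25a16) in the same order of pairs, against 7.70%, 8.42% and 8.62% of genes. In Bsg and Nme4 it was the same transcript in every stage.

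**Figure D1:**
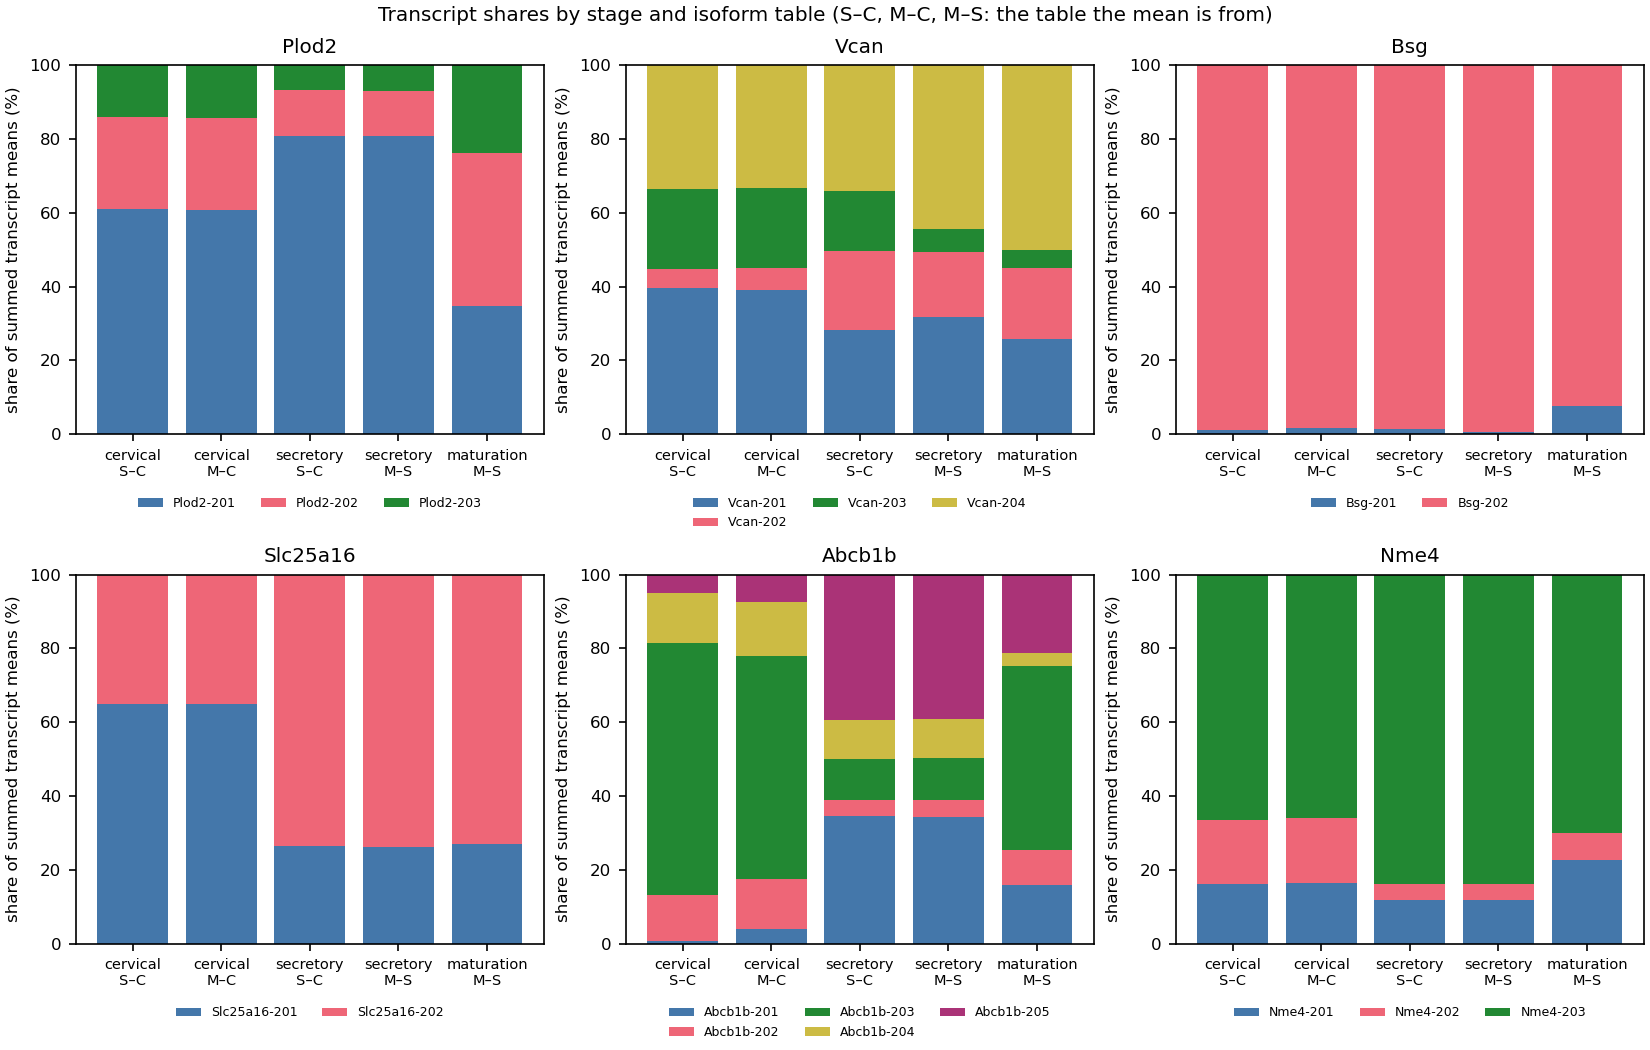
Share of each listed transcript in the summed transcript means of its gene, in percent, with 1 panel per gene and 1 stacked bar per stage and table; S, C and M in the axis labels are secretory, cervical loop and maturation, and name the table the mean is from. The cervical loop bars of Slc25a16 and Abcb1b stand apart from their secretory bars, and the secretory bars of Vcan differ between the tables.

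**Figure D2:**
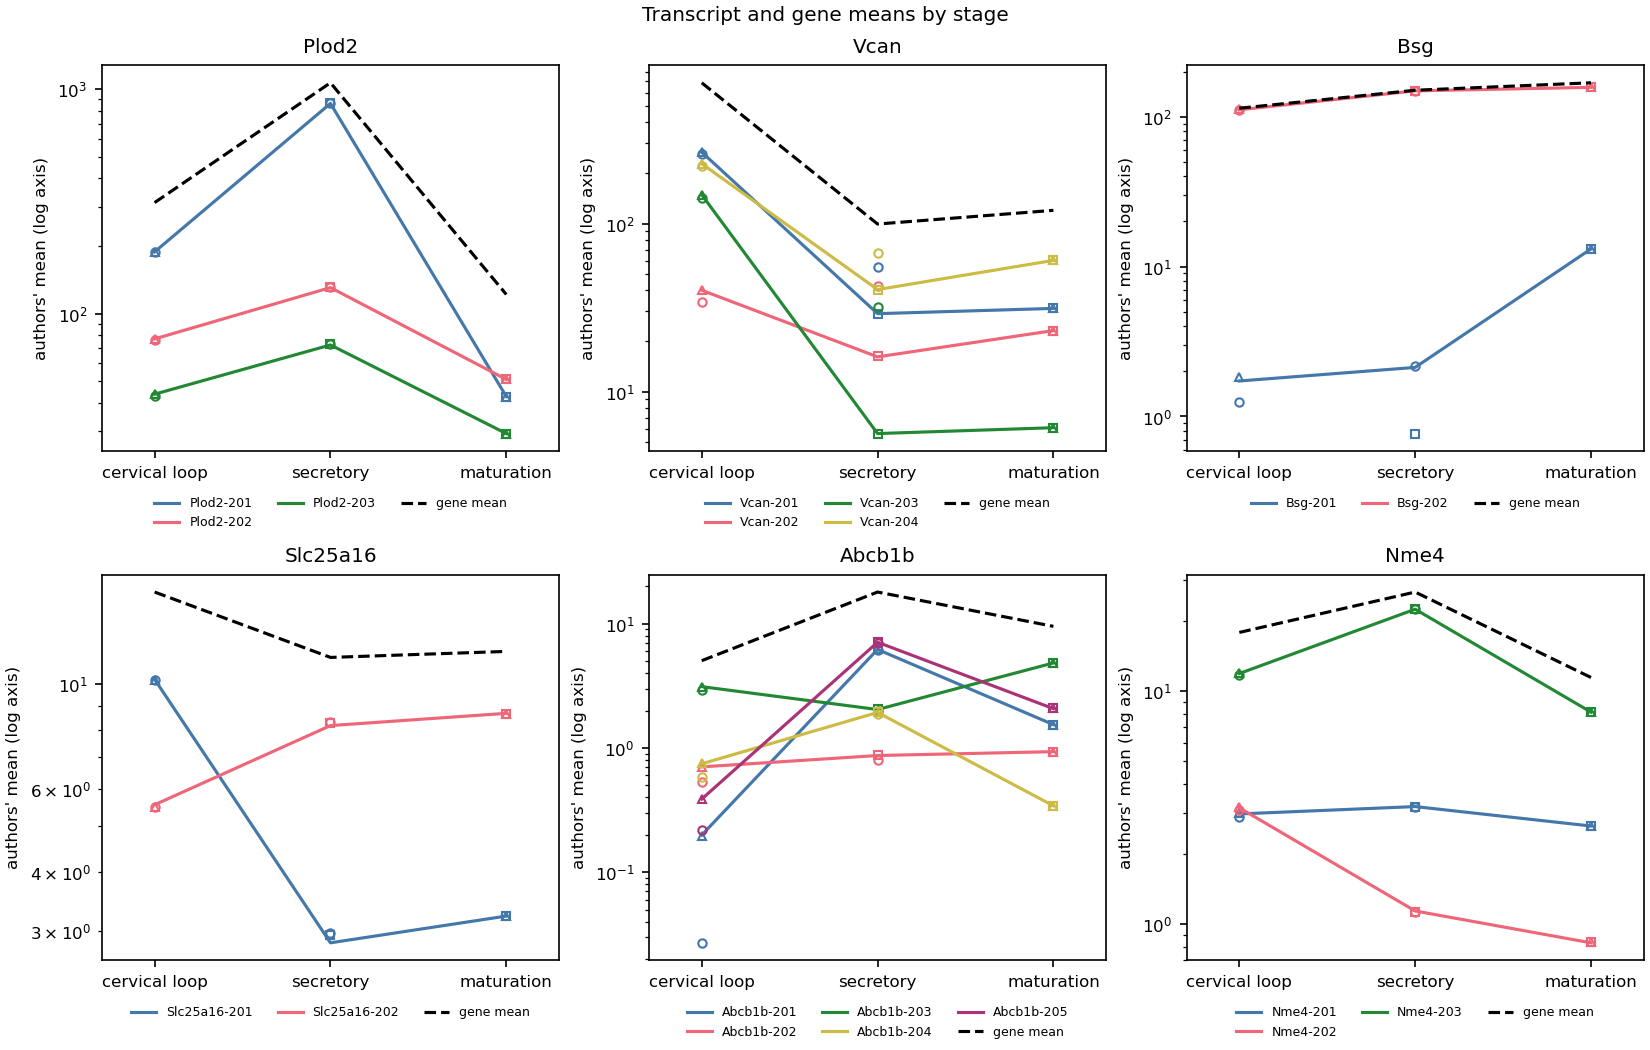
Means on the authors' scale (log axis) of each listed transcript and of the gene (dashed) in the 3 stages; circles are from the table of secretory against cervical loop, squares from maturation against secretory, triangles from maturation against cervical loop, and solid lines join the means solved from the totals. Plod2-201 peaks at 865 in the secretory stage, the lines of Slc25a16 cross once between cervical loop and secretory stage, and the low cervical loop points of Abcb1b-201 differ between tables.

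Plod2 reached its highest level in secretory ameloblasts and most of that peak was 1 transcript. Plod2-201 had means of 188, 865 and 42.7 in cervical loop, secretory and maturation samples in the authors' deposited tables. Plod2-202 stood at 76.5, 131 and 50.9, and Plod2-203 at 43.1, 72.9 and 29.2. All 3 transcripts were thus highest in the secretory stage and lowest in maturation, but by unequal amounts. Plod2-201 was 4.61-fold higher in secretory than in cervical loop samples (FDR = 9.42e-05) and 20.2-fold lower in maturation than in secretory samples (FDR = 1.03e-11) by the authors' deposited tables. For the same steps Plod2-202 was 1.71-fold higher (FDR = 0.0481) and 2.58-fold lower (FDR = 4.17e-05) by the authors' deposited tables. Plod2-203 was 1.69-fold higher, which did not pass (FDR = 0.0674), and 2.51-fold lower (FDR = 5.88e-05).

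Plod2-201 therefore made 61.1% of the gene's summed means in the cervical loop, 80.9% in the secretory stage and 34.8% in maturation. It carried 88.9% of the gene's gain into the secretory stage and 86.9% of its loss after it. In maturation Plod2-202 led with 41.4%, and Plod2-203 held 23.8% against 6.85% in the secretory stage. The shift from secretory to maturation was 46.1 points, a size reached by 0.617% of all genes, and the authors' deposited table gives it p = 5.80e-10, rank 3 of 4050, and FDR = 7.83e-07. Into the secretory stage the shift was 19.8 points with FDR = 0.103, and between maturation and cervical loop 26.0 points with FDR = 0.117, so neither passed in the authors' deposited tables. At the level of the whole gene, Plod2 stood at 312, 1068 and 122. It was 3.42-fold higher in secretory than cervical loop samples (FDR = 0.00609), 8.78-fold lower in maturation than secretory samples (FDR = 0.000803) and 2.57-fold lower in maturation than cervical loop samples (FDR = 0.0142) by the authors' deposited table. The order secretory, cervical loop, maturation thus passed at each step.

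Among the 22 other genes of collagen modification, 5 were higher, 7 lower and 10 did not pass from cervical loop to secretory stage. In maturation against secretory samples, 4 were higher, 5 lower and 13 did not pass, and between maturation and cervical loop 4, 7 and 11. Of all 16516 genes, 16.5% were higher and 25.2% lower in the first pair, 21.8% and 21.1% in the second, and 24.1% and 33.7% in the third. The list's median log2 ratios were -0.13, -0.07 and -0.29, beside -0.14, 0.00 and -0.12 over all genes. P4ha2, a catalytic subunit of a prolyl hydroxylase, stood at 35.5, 177 and 24.3, with FDR = 0.00156 for its rise into the secretory stage and FDR = 0.000655 for its fall after it in the authors' deposited table. Of the other lysyl hydroxylases, Plod3 stood at 20.6, 37.6 and 30.4, a rise of 1.82-fold into the secretory stage (FDR = 0.00677) by the authors' deposited table. Plod1 stood at 27.8, 23.7 and 24.6 and passed in no pair. Colgalt2, which adds galactose to hydroxylysine, rose 6.17-fold from the secretory to the maturation stage (FDR = 0.00163), and Loxl3, a lysyl oxidase relative, was 2.97-fold lower in secretory than in cervical loop samples (FDR = 0.00333) by the authors' deposited table.

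Vcan was highest in the cervical loop, and its transcripts differed in how far they were lower in the later stages. In the authors' deposited table of secretory against cervical loop, Vcan-201 stood at 260 in the cervical loop and 55.1 in the secretory stage, Vcan-203 at 142 and 31.8, and Vcan-204 at 220 and 66.5. These 3 were 4.72-fold, 4.48-fold and 3.31-fold lower in secretory samples, with FDRs of 1.16e-06, 9.27e-10 and 4.83e-05 in the authors' deposited table. Vcan-202 stood at 34.1 and 42.3, 1.24-fold higher with FDR = 0.0168. Its share went from 5.20% to 21.6%, that of Vcan-201 from 39.6% to 28.2% and that of Vcan-203 from 21.6% to 16.2%, while Vcan-204 held 33.5% and 34.0%.

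That table's secretory means for Vcan differ from those of the other tables. The authors' deposited table of maturation against secretory gives secretory means of 28.9, 16.2, 5.64 and 40.3 for Vcan-201 to Vcan-204, and the means solved from the totals are 29.1, 16.1, 5.64 and 40.5. With the totals, Vcan-202 was 2.49-fold lower in secretory samples in place of higher, and Vcan-203 was 26.3-fold lower in place of 4.48-fold. The secretory shares then were 31.9%, 17.6%, 6.17% and 44.3%, against 39.0%, 5.89%, 21.8% and 33.3% in the cervical loop. With either set of means the share of Vcan-202 was higher and that of Vcan-201 lower in the secretory stage. The direction of Vcan-202 itself, the size of the loss of Vcan-203 and the change in share of Vcan-204 depend on the table. The secretory sum of the 4 transcripts was 195.7 in the table of secretory against cervical loop and 91.0 in that of maturation against secretory. It was 91.4 from the totals, beside a gene-level mean of 99.4. The sum of the 4 transcripts was 3.35-fold lower in secretory than in cervical loop samples in the authors' deposited table of that pair, against 6.92-fold lower for the gene.

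**Figure D3:**
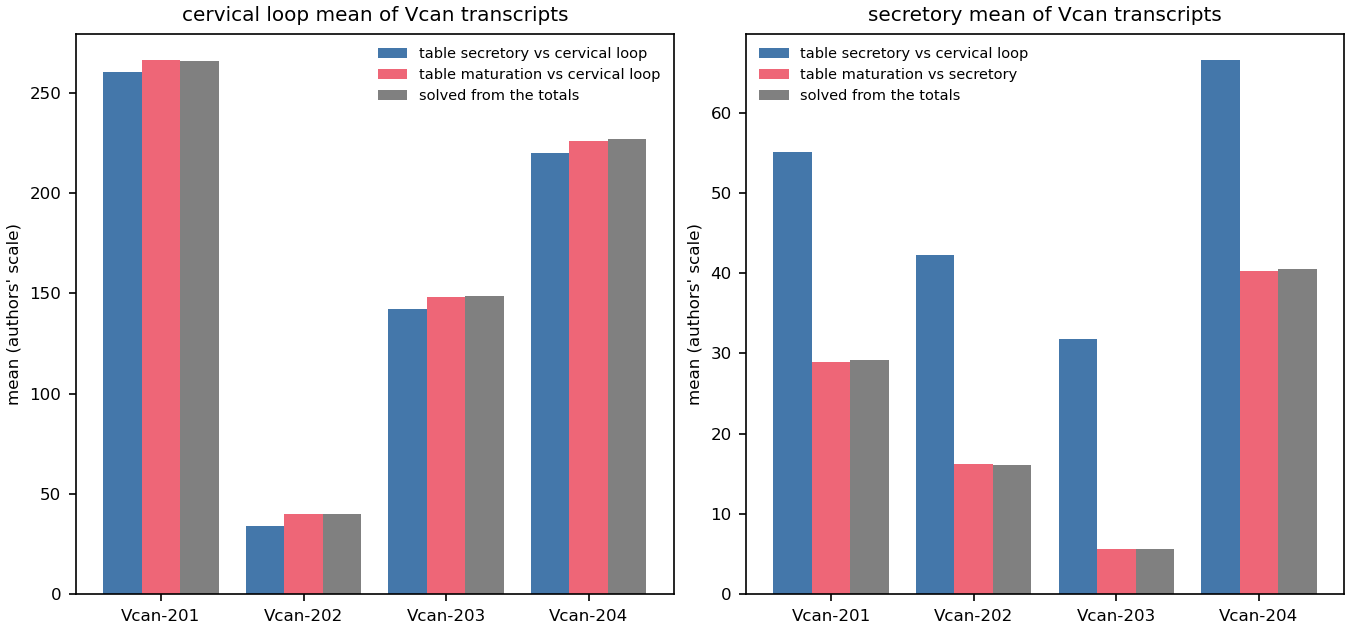
Means of the 4 Vcan transcripts on the authors' scale in the cervical loop and in the secretory stage, as bars from each isoform table that holds the stage and as solved from the deposited totals. The cervical loop bars are close to each other, while the secretory bars of the table of secretory against cervical loop are higher than the others for all 4 transcripts.

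In maturation the 4 transcripts had means of 31.4, 23.1, 6.12 and 60.5 in the authors' deposited table, or 25.9%, 19.1%, 5.05% and 50.0% of their sum. Against the cervical loop of the same pair's table, Vcan-203 was 24.3-fold lower (FDR = 1.33e-10) and Vcan-204 3.74-fold lower (FDR = 0.000233) by the authors' deposited table. Vcan-201 fell from 266 to 31.4 (FDR = 2.59e-07), and Vcan-202 stood at 40.2 and 23.1 without passing (FDR = 0.106) by the authors' deposited table. The shift of 29.9 points between maturation and cervical loop is a size reached by 3.23% of all genes. From cervical loop to secretory stage the shift was 16.9 points, reached by 8.94%. Both that shift and its p-value belong to the comparison whose secretory Vcan means differ from the others. The make-up p-values were 3.52e-07 from cervical loop to secretory stage (FDR = 0.000476) and 4.65e-08 between maturation and cervical loop (FDR = 5.64e-05), each rank 3 of 4050, in the authors' deposited tables. From secretory to maturation it was 0.455 (FDR = 0.859), with a shift of 6.96 points. At gene level Vcan had means of 687.5, 99.4 and 120 in the authors' deposited table. It was 6.92-fold lower in secretory than in cervical loop samples (FDR = 0.000835) and 5.74-fold lower in maturation than in cervical loop samples (FDR = 0.000481), while maturation and secretory samples did not differ past the threshold (1.21-fold, FDR = 0.284), by the authors' deposited table.

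Beside the fall of Vcan, the 6 markers of progenitors and dividing cells were all lower in secretory and in maturation than in cervical loop samples. Of 12 mesenchyme markers, 3 were lower and 1 higher in secretory than in cervical loop samples. In maturation against cervical loop samples, 1 mesenchyme marker was lower and 4 were higher. Of all genes, 25.2% were lower and 16.5% higher in the first of these pairs, and 33.7% and 24.1% in the second. The part of either set of markers in the Vcan result was not tested. Among 30 measured genes of the versican and hyaluronan matrix, 7 were higher, 9 lower and 14 did not pass from cervical loop to secretory stage. On entry into maturation 2 were higher, 8 lower and 20 did not pass, and between maturation and cervical loop 5, 14 and 11. The medians were -0.10, -0.27 and -0.42 in log2. Adamts20, a secreted protease, stood at 25.0 in the cervical loop and 1.65 in the secretory stage, 15.2-fold lower (FDR = 0.000938), by the authors' deposited table. Hapln1, a link protein of hyaluronan whose gene lies beside Vcan in the GRCr8 assembly, stood at 41.7, 15.0 and 6.18, and was 2.43-fold lower in maturation than in secretory samples (FDR = 0.0229) and 6.75-fold lower in maturation than in cervical loop samples (FDR = 0.00100) by the authors' deposited table. Fbln1, a fibulin, stood at 255, 115 and 52.8 (FDR = 0.000157 between maturation and cervical loop) by the authors' deposited table. Cd44, the hyaluronan receptor, went the other way, at 131, 499 and 561 (3.82-fold higher in secretory than in cervical loop samples, FDR = 0.000899), by the authors' deposited table. Aggrecan, Acan, the closest measured relative of Vcan, stood at 19.4, 42.9 and 17.6, with FDR = 0.00840 for the rise into and FDR = 0.00526 for the fall from the secretory stage in the authors' deposited table. Bcan and Ncan were not analysed here.

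Bsg was carried in every stage by Bsg-202, and the transcript that passed was the minor one. Bsg-202 had means of 111, 149 and 157 in the authors' deposited tables and passed in no pair, with FDRs of 0.361, 0.63 and 0.108. Bsg-201 stood at 13.1 in maturation, 7.70% of the sum. Its cervical loop mean was 1.24 in one table and 1.83 in the other, and its secretory mean 2.16 in the table of secretory against cervical loop and 0.769 in that of maturation against secretory. Bsg-201 rose 17.1-fold from the secretory to the maturation stage (FDR = 3.09e-07) and was 7.16-fold higher there than in cervical loop samples (FDR = 3.18e-06) by the authors' deposited tables. With means solved from the totals, these ratios were 6.17 and 7.61. Its share was at most 1.61% in any table outside maturation.

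The shift into maturation was therefore small in points, 7.18 against the secretory stage and 6.09 against the cervical loop. Shifts of that size were reached by 29.6% and 35.1% of all genes. Its make-up p-values of 4.84e-08 (rank 4 of 4050, FDR = 4.90e-05) and 4.37e-06 (rank 18, FDR = 0.000984) stand in the authors' deposited tables, and that from cervical loop to secretory stage was 0.819 (FDR = 0.981). Bsg-201 nonetheless carried 57.8% of the gene's gain from secretory to maturation in the table of that pair. At gene level Bsg had means of 114, 150.2 and 168 in the authors' deposited table. It was 1.32-fold higher in secretory (FDR = 0.0312) and 1.48-fold higher in maturation samples (FDR = 0.00514) than in the cervical loop, while the step from secretory to maturation did not pass (1.12-fold, FDR = 0.266), by the authors' deposited table. An uncharacterised gene, LOC134479816, overlaps Bsg in the GRCr8 assembly and was not analysed here, and without strand the reads of such a pair could not be told apart.

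Of the 13 genes listed as basigin partners and relatives, 2 were higher, 4 lower and 7 did not pass from cervical loop to secretory stage. On leaving the secretory stage 4 were higher, 0 lower and 9 did not pass, and between maturation and cervical loop 3 were higher, 0 lower and 10 did not pass. The medians were -0.44, 0.42 and 0.19 in log2. Embigin, Emb, a relative of basigin that also accompanies lactate carriers, stood at 5.90, 2.44 and 25.7, 10.5-fold higher in maturation than in secretory samples (FDR = 0.000152), by the authors' deposited table. Slc16a3, a lactate carrier, stood at 5.34, 1.15 and 6.07, 5.29-fold higher in maturation than in secretory samples (FDR = 0.00149), by the authors' deposited table. Slc2a1, the glucose carrier, stood at 11.9, 12.0 and 47.6, 3.97-fold higher in the same comparison (FDR = 0.000114), by the authors' deposited table. Slc16a1, another lactate carrier, stood at 16.8, 15.7 and 22.0 and passed in no pair. Neuroplastin, Nptn, the closest relative of basigin, stood at 73.9, 108.7 and 88.9 and passed only from cervical loop to secretory stage (1.47-fold higher, FDR = 0.0280) by the authors' deposited table. Beside these values, 5 of 6 myeloid, 3 of 7 endothelial and 5 of 12 mesenchyme markers were higher and 0 lower in maturation than in secretory samples. Of all genes, 21.8% were higher and 21.1% lower in that pair. The part of these cells was not tested.

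Slc25a16 exchanged its leading transcript once, between the cervical loop and the secretory stage, and kept the new make-up. Slc25a16-201 had means of 10.2, 2.97 and 3.22 in the authors' deposited tables. Slc25a16-202 stood at 5.49, 8.31 and 8.67. From cervical loop to secretory stage the first was 3.44-fold lower (FDR = 1.41e-05) and the second 1.51-fold higher (FDR = 0.00416) by the authors' deposited table. The 2 transcripts thus moved in opposite directions, and both passed. Between maturation and cervical loop they moved the same way again, 3.16-fold lower (FDR = 4.20e-06) and 1.58-fold higher (FDR = 0.00261), by the authors' deposited table.

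Slc25a16-201 went from 65.0% of the sum in the cervical loop to 26.3% in the secretory stage and 27.1% in maturation. The shift of 38.7 points into the secretory stage was reached by 0.963% of genes, and its p of 5.91e-08 is the lowest of the 4050 in the authors' deposited table (FDR = 0.000239). From secretory to maturation it was 0.944 points, with p = 0.544 (FDR = 0.889), and between maturation and cervical loop 37.9 points, with p = 5.57e-08 (FDR = 5.64e-05), by the authors' deposited tables. In the sum over both transcripts, the gain of Slc25a16-202 offset part of the loss of Slc25a16-201. At gene level Slc25a16 stood at 15.7, 11.4 and 11.8, 1.38-fold lower in secretory (FDR = 0.000460) and 1.34-fold lower in maturation samples (FDR = 0.000151) than in the cervical loop, in the authors' deposited table. Secretory and maturation samples did not differ past the threshold (1.03-fold, FDR = 0.218). In the GRCr8 assembly Dna2 and LOC120099058 overlap Slc25a16, and reads of overlapping genes may have been counted for it. Neither was analysed here.

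Of the 12 genes of coenzyme A synthesis and its carriers, 1 was higher, 2 lower and 9 did not pass from cervical loop to secretory stage. From secretory to maturation 5 were higher, 2 lower and 5 did not pass, and between maturation and cervical loop 2, 3 and 7. The medians were -0.20, 0.06 and 0.18 in log2. Slc25a42, the other mitochondrial carrier linked to coenzyme A, stood at 2.84, 3.12 and 3.19 and passed in no pair. Dcakd, a relative of the kinase that completes coenzyme A, stood at 17.9, 12.3 and 6.96, lower at each step (FDR = 0.00288 and FDR = 0.000537 in the authors' deposited table). Pank2, a pantothenate kinase, was 1.38-fold lower in secretory than in cervical loop samples (FDR = 0.00813) and its relative Pank3 1.35-fold higher (FDR = 0.0491) by the authors' deposited table. Enpp1, an enzyme of the cell surface that cleaves nucleotides and dinucleotides, rose 5.86-fold from the secretory to the maturation stage (FDR = 0.000256) by the authors' deposited table.

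Abcb1b had the largest shift of the members from cervical loop to secretory stage, and its size depends on low transcript means. The share difference of Abcb1b-203 in that pair was -57.2 points as deposited and -29.3 with 1 added to every mean. That is 1 transcript of 5, and the shift of the whole gene with 1 added was not computed. In the cervical loop Abcb1b-203 led, at 2.94 or 68.3% of the sum, in the authors' deposited table of secretory against cervical loop. In secretory samples Abcb1b-205 stood at 7.02 (39.5%) and Abcb1b-201 at 6.14 (34.5%), with Abcb1b-203 at 1.97 (11.1%). In maturation Abcb1b-203 led again, at 4.83 (49.7%), before Abcb1b-205 at 2.08 (21.4%) and Abcb1b-201 at 1.54 (15.8%) by the authors' deposited table. Both leading transcripts of the secretory stage were thus low in the cervical loop. Their cervical loop means were 0.219 and 0.027 in the table of secretory against cervical loop, and 0.388 and 0.196 in that of maturation against cervical loop.

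Abcb1b-205 was 32.0-fold higher in secretory than in cervical loop samples (FDR = 1.15e-05) by the authors' deposited table, and 18.3-fold with the means solved from the totals. For Abcb1b-201 no fold is given against a cervical loop mean under 0.1 (FDR = 2.41e-06 in the authors' deposited table), and with the totals, which put that mean at 0.199, it was 31.2-fold higher. Abcb1b-203 did not pass in any pair, with FDRs of 0.608, 0.0596 and 0.376, and its means lay between 1.97 and 4.83 in all tables. In maturation, compared with secretory samples, Abcb1b-204 was 5.68-fold lower (FDR = 0.000373), Abcb1b-201 4.03-fold lower (FDR = 0.00260) and Abcb1b-205 3.41-fold lower (FDR = 0.00654) by the authors' deposited table. With 1 added to both means, the ratio of Abcb1b-204 was 0.457 in place of 0.176. Abcb1b-202 stayed between 0.536 and 0.933 in every table and passed in no pair.

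The shift into the secretory stage was 68.2 points in the authors' deposited table, a size reached by 0.0494% of genes, which is 2 of 4050 including Abcb1b. It was 43.2 points from secretory to maturation and 25.9 between maturation and cervical loop, sizes reached by 0.840% and 4.02%. The make-up FDRs were 0.000388, 0.00155 and 0.00450 in the authors' deposited tables. Abcb1b was the only member to pass in all 3 pairs, which share stages and are not independent. At gene level Abcb1b stood at 5.04, 18.0 and 9.51, 3.57-fold higher in secretory (FDR = 0.00589) and 1.89-fold higher in maturation samples (FDR = 0.0298) than in the cervical loop, in the authors' deposited table. The fall from secretory to maturation did not pass (1.89-fold, FDR = 0.0683). Abcb1a, a paralog that lies beside it in the GRCr8 assembly, was not analysed here. Reads from stretches that these paralogs share may have been split between them, which adds uncertainty to the values of Abcb1b. How alike their sequences are was not measured here. LOC120102222 overlaps Abcb1b there and was not analysed here. Endothelium is known for P-glycoprotein, and 2 of its 7 measured markers were higher in secretory than in cervical loop samples and 0 lower. In maturation, 3 were higher and 0 lower than in secretory samples, and 5 higher and 0 lower than in cervical loop samples. Of all genes, 16.5%, 21.8% and 24.1% were higher in these pairs, in that order. The sums of the endothelial markers were 163, 222 and 325, beside Abcb1b at 5.04, 18.0 and 9.51. Their part in the Abcb1b result was not tested.

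Among 11 measured exporters of drugs and lipids, 4 were higher, 1 lower and 6 did not pass from cervical loop to secretory stage. In maturation against secretory samples, 2 were higher, 3 lower and 6 did not pass, and between maturation and cervical loop 5, 1 and 5. The medians were 0.28, 0.06 and 0.46 in log2. The lipid exporter Abcg1 stood at 7.70, 26.0 and 12.4, 3.38-fold higher in secretory than in cervical loop samples (FDR = 0.00128) and 2.10-fold lower in maturation than in secretory samples (FDR = 0.00575), by the authors' deposited table. Abca1, a cholesterol exporter, stood at 89.8, 211 and 138, with FDR = 0.00147 and FDR = 0.0115 for the same steps in the authors' deposited table. Abca3, a phospholipid transporter, was 2.16-fold higher in secretory than in cervical loop samples (FDR = 0.00533) by the authors' deposited table. Abcc4, an exporter of organic anions, rose 2.27-fold from the secretory to the maturation stage (FDR = 0.000492) by the authors' deposited table. Abcb4 was not analysed here.

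Nme4 kept Nme4-203 as its leading transcript, and a minor transcript, Nme4-202, was lower in both later stages than in the cervical loop. Nme4-203 had means of 11.8, 22.5 and 8.17 in the authors' deposited tables, or 66.4%, 83.9% and 70.1% of the sum. Nme4-202 stood at 3.08, 1.13 and 0.835, or 17.3%, 4.21% and 7.16%. Nme4-201 stood at 2.89, 3.20 and 2.65 and passed in no pair. Nme4-203 was 1.90-fold higher in secretory than in cervical loop samples (FDR = 0.0113), and Nme4-202 was 2.71-fold lower (FDR = 0.000325), by the authors' deposited table. On entry into maturation Nme4-203 was 2.75-fold lower (FDR = 0.000119) by the authors' deposited table, and carried 94.5% of the gene's loss. Against the cervical loop, maturation samples had 3.82-fold less Nme4-202 (FDR = 1.23e-08) and 1.46-fold less Nme4-203 (FDR = 0.00361) by the authors' deposited table.

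The shifts of 17.5, 13.8 and 10.4 points were reached by 8.22%, 13.0% and 19.1% of genes. The make-up passed from cervical loop to secretory stage (p = 4.91e-06, FDR = 0.00332) and between maturation and cervical loop (p = 7.52e-08, FDR = 6.09e-05), and not from secretory to maturation (p = 0.00144, FDR = 0.0698), by the authors' deposited tables. At gene level Nme4 stood at 17.9, 26.7 and 11.5 and each step passed in the authors' deposited table. It was 1.49-fold higher in secretory than in cervical loop samples (FDR = 0.00721), 2.33-fold lower in maturation than in secretory samples (FDR = 0.000405) and 1.56-fold lower in maturation than in cervical loop samples (FDR = 0.00188) by the authors' deposited table.

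Of 15 measured nucleoside and nucleotide kinases, 4 were higher, 8 lower and 3 did not pass from cervical loop to secretory stage. On entry into maturation 4 were higher, 3 lower and 8 did not pass, and between maturation and cervical loop 5, 6 and 4. The medians were -0.51, -0.02 and -0.04 in log2. Nme1 and Nme2, cytosolic relatives of Nme4, were also highest in the secretory stage. Nme1 stood at 27.2, 58.1 and 31.9 (FDR = 0.000881 for the rise and FDR = 0.00140 for the fall), and Nme2 at 76.8, 115 and 57.3 (FDR = 0.000762 and FDR = 0.000153), by the authors' deposited table. These 2 genes are alike in sequence, and reads may have been split between them. Nme3 stood at 4.80, 5.17 and 5.63 and passed in no pair. Ak3, an adenylate kinase of the mitochondrial matrix, was 2.0-fold higher in secretory than in cervical loop samples (FDR = 0.000709) by the authors' deposited table. Guk1, guanylate kinase, rose 2.07-fold from the secretory to the maturation stage (FDR = 0.000223) by the authors' deposited table.

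The timing of the changes divided the members. Slc25a16, Vcan and Nme4 passed for make-up against the cervical loop in both later stages and not between those stages. Bsg passed against both earlier stages only in maturation, Plod2 passed only from secretory to maturation, and Abcb1b in every pair. Whether the shift of a member differed between the pairs was not tested. Of the 19 transcripts, 12 passed from cervical loop to secretory stage, 7 higher and 5 lower, in the authors' deposited table. Over all 9949 transcripts the share was 16.0% in either direction. The 7 higher include Vcan-202, whose direction depends on the table. On leaving the secretory stage 8 passed, 1 higher and 7 lower, against 17.0%, and between maturation and cervical loop 11 passed, 4 higher and 7 lower, against 25.1%. The 1 that was higher from secretory to maturation is Bsg-201.

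At gene level all 6 members passed from cervical loop to secretory stage, 4 higher and 2 lower, against 41.8% of all genes in the authors' deposited table. From secretory to maturation 2 passed, Plod2 and Nme4, both lower, against 42.9%, and between maturation and cervical loop 6 passed, 2 higher and 4 lower, against 57.8%. The shares of all genes higher and lower in each pair are those given with the collagen list. Transcripts of 1 gene differed in their ratio of maturation to secretory level by 13.5 times between highest and lowest in Abcb1b. The spread was 16.1 times in Bsg, 8.08 times in Plod2 and 1.05 times in Slc25a16. With 1 added to every mean, the ratios ran from 0.352 to 1.92 in Abcb1b and from 0.0505 to 0.407 in Plod2. That the spread of Abcb1b is larger than that of Plod2 thus rests on low means. For Bsg the spread depends on the table, since the ratio of Bsg-201 was 17.1 in the authors' deposited table and 6.17 from the totals. Transcripts of 1 gene passed in opposite directions in Vcan, Slc25a16 and Nme4 from cervical loop to secretory stage and in Slc25a16 between maturation and cervical loop. For Vcan this rests on the secretory means of 1 table.

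**Figure D4:**
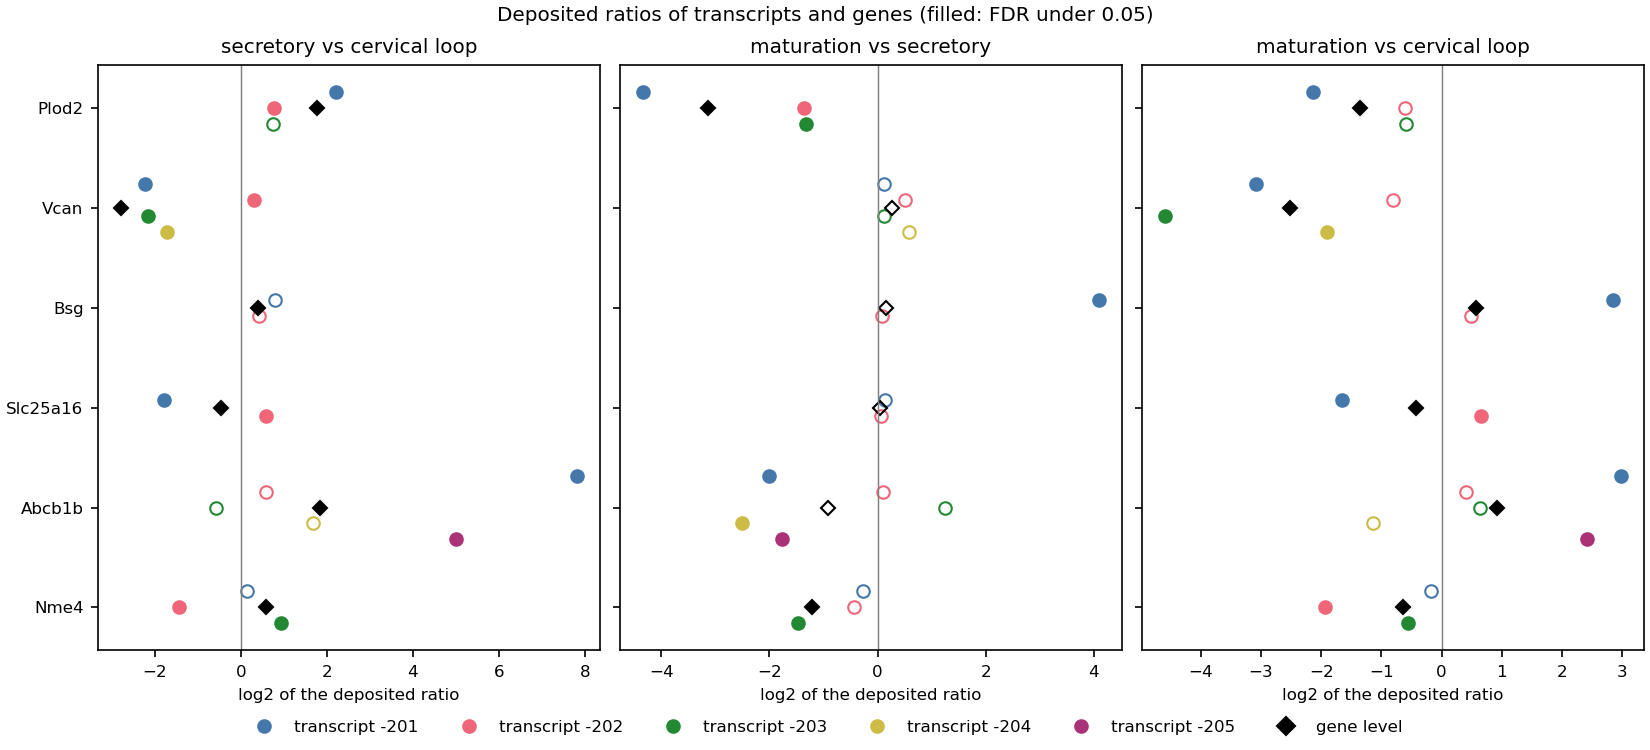
Log2 of the deposited ratio of each transcript (circles) and of the gene (diamonds) for the 3 pairs of stages, filled where the authors' FDR is under 0.05. The 2 transcripts of Slc25a16 lie on opposite sides of 0 in the panels against the cervical loop, and Bsg-201 stands alone at a ratio of 17.1 in the panel of maturation against secretory.

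Across 12462 genes with a mean of at least 1 in every stage, the gene-level profiles nearest to each member were sought by the distance between log2 means over the 3 stages, each centred on its own mean. With 3 points many genes lie close by, and no more than likeness of level is meant. Susd5 (0.0733) and Srgap1 (0.0831) were nearest to Plod2, with Susd5 at 16.4, 56.7 and 6.05 in cervical loop, secretory and maturation samples in the authors' deposited table. Near to Vcan was Kif18a (0.115), a kinesin of dividing cells, at 11.8, 1.90 and 2.25 in the authors' deposited table. Dnm2 (0.00721) and Smap1 (0.00921) were nearest to Bsg, AC131360.1 (0.00549) and Jade1 (0.0109) to Slc25a16, Dgkq (0.0246) and Mb21d2 (0.0400) to Abcb1b, and Ttyh3 (0.00110) and Camta1 (0.0165) to Nme4.

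In all, 102 other genes of the 6 pathways were measured. From cervical loop to secretory stage 22 were higher, 31 lower and 49 did not pass, with a median log2 ratio of -0.13. On entry into maturation the counts were 21, 21 and 60, with a median of 0.05, and between maturation and cervical loop 23, 31 and 48, with a median of 0.00. Of these genes 33 have alternative transcripts in the isoform tables, and 0 passed for a change of make-up in any pair in the authors' deposited tables. Over all 4050 genes the shares were 1.19%, 1.80% and 2.79%, so 0 of 33 is near them and nothing is read from it. The unadjusted make-up p was under 0.05 for 2, 3 and 6 of the 33 in the 3 pairs. No share over all genes is given for that count, so it cannot be read as a result about these pathways. Cd44 stands in 2 of the lists.

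**Figure D5:**
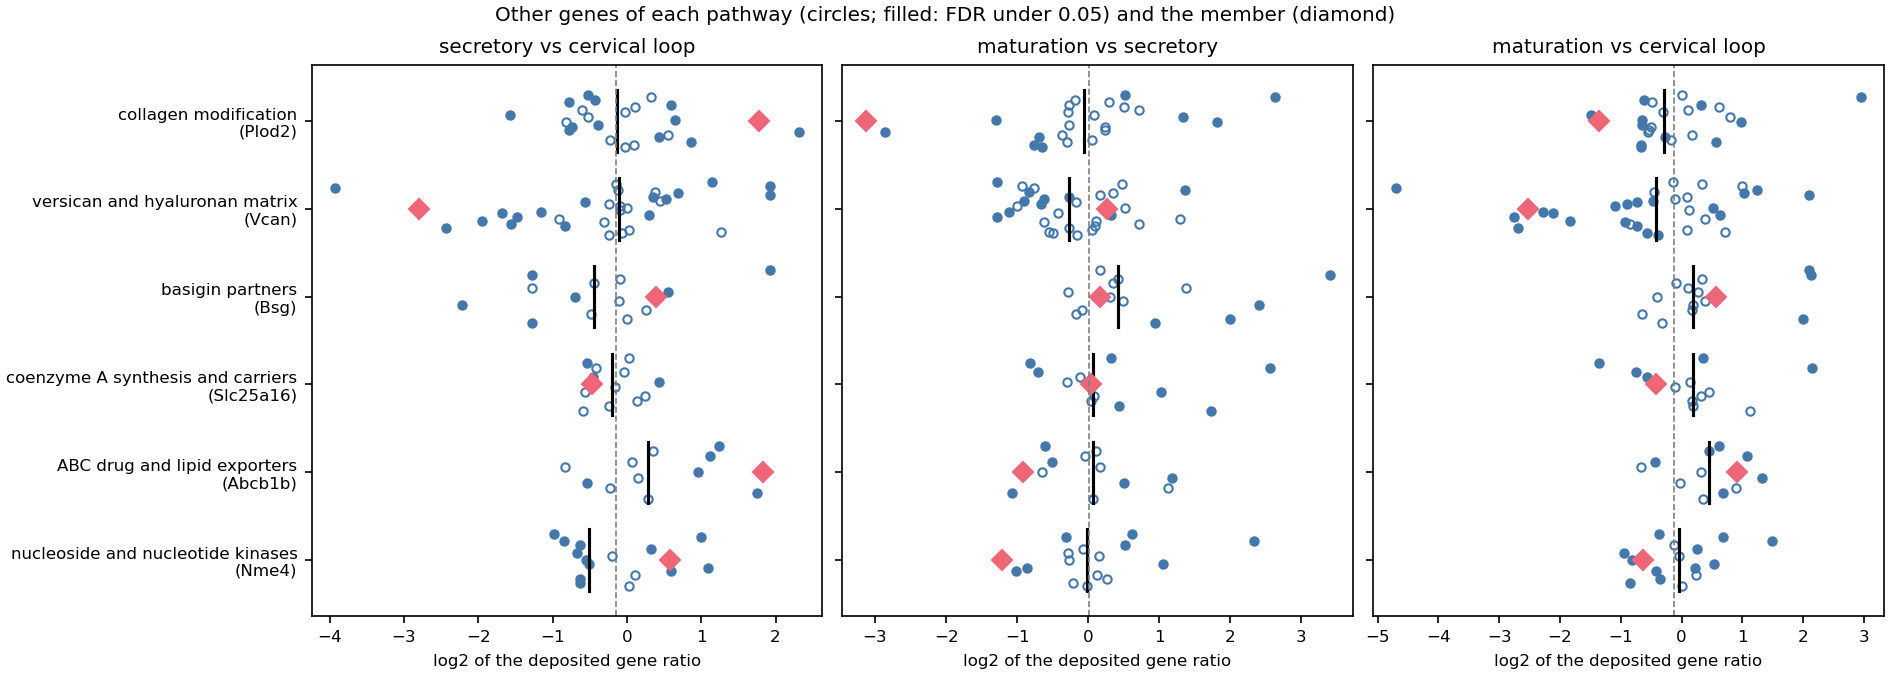
Log2 of the deposited gene ratio of the other genes of each pathway (circles, filled where the FDR is under 0.05) and of the member named in brackets (diamond) for the 3 pairs of stages; black bars are list medians and the dashed line is the median over all genes. List medians lie between -0.51 and 0.46, and Plod2 and Vcan lie toward the ends of their lists where their ratios are largest.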

How the data were processed

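Per the submitters' processing notes, the authors worked with Partek, STAR 2.5.3a and genome build rn6. The annotation, the normalisation and unit of the means, the strand setting and the model were not given in the sources used here. Per the file headers, the deposited tables give least-squares means per stage, a p-value and an FDR from the authors' model, and a ratio of 2 stage means. Per the file headers, each isoform table also holds a p-value per gene for transcript make-up.

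From these, transcript shares were computed with means below 0 set to 0, and Benjamini-Hochberg adjustment was applied to the p-values across every gene of a table, with a threshold of 0.05. Means were solved from the deposited totals of the 3 pairs, an alternative added after seeing the data. No test was run here, since each stage is 1 sample. Scripts used Python 3.11.15, numpy 2.4.6, pandas 2.3.3 and matplotlib 3.10.9, and were tested on simulated data. A Gene ID stored as a date was read from its transcript name.

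The members and lists were chosen with earlier results of these data known. Named beside the members are their closest paralogs, up to 4 genes per list and pair with the largest log2 ratio among those passing with means above 1, and 2 nearest genes each. Of the genes so chosen, 2 are not reported here. Of the list genes, 1 was matched by a synonym and 10 were not analysed here. Alternatives were other tables, a pseudocount of 1, filters on low means and an FDR of 0.01. RefSeq names and neighbours come from GRCr8, so no rn6 coordinates are given.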

Additional observations from a re-analysis of the deposited data

How the results depend on the processing

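With a stage's means taken from the other isoform table, Vcan-202 turned from higher to lower in secretory against cervical loop samples (ratio 0.403, and 0.402 from the totals), and Bsg-201 also turned (0.420). From secretory to maturation the same choice turned Vcan-201, Vcan-202, Vcan-203 and Vcan-204 (0.570, 0.546, 0.193 and 0.910), which had not passed, whereas the totals kept their direction. The cause was not tested. Of 57 transcript ratios, 43 stayed within 1.5-fold and in direction with the other table, 50 with the totals and 48 with a pseudocount of 1. The 9 that moved with the pseudocount are 7 of Abcb1b, Bsg-201 from secretory to maturation (7.97) and Nme4-202 between maturation and cervical loop (0.438). Of the 18 largest share differences, 17 moved by less than 5 points with the other table, with the totals and with low transcripts left out, and 14 with a pseudocount of 1. For Abcb1b-203 in secretory against cervical loop samples, the difference of -57.2 points became -49.2 with the other table, -49.2 from the totals, -29.3 with the pseudocount and -66.5 without low transcripts. The pseudocount also gave 26.5 points for Abcb1b-203 from secretory to maturation, 7.24 for Abcb1b-205 between maturation and cervical loop and 33.4 for Slc25a16-202 in secretory against cervical loop samples. The sum of Vcan transcripts gave a ratio of 0.298 for secretory against cervical loop samples. At an FDR of 0.01, make-up calls numbered 14, 34 and 42 over all genes in the 3 pairs. Gene-level calls then numbered 1690 higher and 2357 lower from cervical loop to secretory stage and 2058 higher and 2106 lower from secretory to maturation, and 2710 and 3864 between maturation and cervical loop. Pathway genes called were 12 higher and 16 lower, 12 higher and 15 lower, and 15 higher and 23 lower in the pairs in order. A division by transcript length was not run, and no paired analysis was possible because each stage is 1 deposited mean, which also leaves no library to omit. Low means, such as those of Abcb1b, are the least certain, and their depth is unknown.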
